A study of Mus musculus with 3 samples.

Results

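Shared intergenic open regions are stretches of accessible chromatin that were called as peaks in every library of the series and that lie away from protein-coding genes. To find them, peaks of the 3 deposited lists on chromosomes 1 to 19 were merged where they shared at least 1 bp, which gave 144008 regions. A merged region was called common when it held a peak of all 3 libraries (46490 regions), and a common region was kept when it overlapped no protein-coding gene body and lay over 1 kb from each end of every annotated gene (mm10). This left 12839 shared intergenic regions, 27.6% of the common ones. The nearest region kept lay 1001 bp from a gene end and the farthest one left out 1000 bp. The other common regions were 17528 intragenic ones and 16123 within 1 kb of a gene end. The label held up against the positions with a limit: 2159 of the 12839 regions (16.8%) overlapped the body of a noncoding gene, mostly a long noncoding RNA (lncRNA) gene among those named here, so intergenic means outside protein-coding genes.

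The nuclei came from mouse tissue labelled glioma, made by in utero electroporation of the embryonic brain with piggyBac transposons, which insert their cargo into the genome. Each of 3 groups had 1 library: Control, overexpression of PDGFB-WT, and overexpression of PDGFB-NLS. PDGFB is a secreted growth factor that signals through the receptors PDGFRA and PDGFRB. The labels do not spell out NLS, the host strain, the age, or whether Control is a tumor, and they do not say how many animals went into a library.

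Most enhancers, the DNA elements that raise transcription of a gene from a distance, lie in introns and intergenic DNA, and their accessibility differs much more between cell types than that of promoters. An enhancer need not act on the nearest gene, so the gene names used here give a position and not a target. In single-cell ATAC-seq the Tn5 enzyme inserts adapters into open DNA, and those insertions are counted per barcoded nucleus and peak.

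Depth differed strongly between the libraries. Barcodes with at least 200 counts numbered 2226 in Control, 7441 with PDGFB-WT and 10996 with PDGFB-NLS. Their median count on chromosomes 1 to 19, X and Y was 13054, 821 and 2768. The PDGFB-WT list held 56218 peaks, against 105341 in Control and 124578 in PDGFB-NLS. Clusters of nuclei were formed on peaks outside the 12839 regions and named from marker genes. Nuclei like oligodendrocyte precursor cells (OPC) made up 2.56% of barcodes in Control, 31.3% with PDGFB-WT and 12.8% with PDGFB-NLS. Oligodendrocyte-like nuclei made up 16.2% in Control and 20.7% in PDGFB-NLS, and no PDGFB-WT cluster took that name. Control and PDGFB-WT shared 22 barcode sequences, Control and PDGFB-NLS 45, and PDGFB-NLS and PDGFB-WT 118. With 1 library per group there is no replicate check, and each ratio compares libraries. All intervals are exact 95% intervals (Clopper-Pearson, on fragments) that cover counting error only. In sums over a library, fewer nuclei of a type and less signal per nucleus cannot be told apart.

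Of the 12839 regions, 37 contained a whole 300-base RefSeq window around an annotated start of a gene (GRCm38.p6). The 1 kb rule used only the outer ends of each gene, so these starts lie away from those ends. The windows below are shown because they give the DNA inside regions at both ends of the comparison between PDGFB-WT and Control and inside the one of highest mean level among the regions with such a window. Capitals mark matches, on either strand, of AP-1 (TGANTCA), PU.1 (GAGGAAGT) and SOX (ACAANG) motifs, and each run of capitals is a single match. All 4 windows belong to lncRNA genes. 5930403N24Rik (plus strand, chr10:37140820-37141119) lies 1.75 kb from Marcks in a region at 39.6 CPM in Control, 60.3 with PDGFB-WT and 49.5 with PDGFB-NLS, where CPM is the count scaled to 1000000 over all common regions of the library. Gm15564 (minus strand, chr16:35981798-35982097) lies 1.14 kb from Kpna1 in a region at 63.8, 16.1 and 38.6 CPM. Gm31115 (plus strand, chr4:64282468-64282767) lies 235 kb from Tnc in a region at 2.13, 9.04 and 5.08 CPM. Gm6145 (minus strand, chr14:105631275-105631574) lies 260 kb from Spry2 in a region at 7.49, 31.0 and 13.1 CPM.
5930403N24Rik: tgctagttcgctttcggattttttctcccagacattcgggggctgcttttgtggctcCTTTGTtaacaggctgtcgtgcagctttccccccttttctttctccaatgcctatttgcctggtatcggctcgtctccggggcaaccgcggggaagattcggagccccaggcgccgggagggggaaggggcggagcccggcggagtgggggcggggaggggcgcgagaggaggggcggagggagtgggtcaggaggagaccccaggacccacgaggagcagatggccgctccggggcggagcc
Gm15564: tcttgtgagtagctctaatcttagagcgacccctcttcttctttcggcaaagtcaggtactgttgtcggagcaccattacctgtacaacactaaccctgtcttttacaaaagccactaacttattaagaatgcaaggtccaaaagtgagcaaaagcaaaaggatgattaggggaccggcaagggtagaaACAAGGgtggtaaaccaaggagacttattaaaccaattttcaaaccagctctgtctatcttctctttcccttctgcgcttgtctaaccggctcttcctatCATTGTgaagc
Gm31115: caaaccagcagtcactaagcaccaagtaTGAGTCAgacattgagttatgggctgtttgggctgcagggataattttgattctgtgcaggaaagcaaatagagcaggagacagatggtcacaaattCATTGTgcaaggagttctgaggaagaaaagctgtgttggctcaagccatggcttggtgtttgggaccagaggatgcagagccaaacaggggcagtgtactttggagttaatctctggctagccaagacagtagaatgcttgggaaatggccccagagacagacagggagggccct
Gm6145: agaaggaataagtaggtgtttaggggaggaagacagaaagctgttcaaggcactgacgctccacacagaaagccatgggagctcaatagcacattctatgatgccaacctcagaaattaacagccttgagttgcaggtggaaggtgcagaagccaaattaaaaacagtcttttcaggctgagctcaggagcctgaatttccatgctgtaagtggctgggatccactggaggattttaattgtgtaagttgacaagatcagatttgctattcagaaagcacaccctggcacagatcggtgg
The window of Gm31115 holds an AP-1 match and a SOX match, that of Gm15564 2 SOX matches, and that of Gm6145 none of the 3 motifs. The window of Gm3331, in a region 31.2 kb from Ets1, is not shown and held none of the 3 either. Among the compared regions with windows to choose from, its region had the highest ratio of PDGFB-WT against Control (log2 2.61). Motifs of NFI (TTGGCA) and the E-box (CAGNTG) were searched too and are not in capitals. Over the 37 windows, 2 held AP-1, 0 PU.1, 19 SOX, 13 NFI (35.1%) and 18 the E-box (48.6%). Over all 32817 RefSeq start windows of the same length, 7.81% held AP-1, 3.20% PU.1, 41.3% SOX, 14.1% NFI and 51.4% the E-box.

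A region could enter the set only if it was called in the shallow PDGFB-WT library, so calling moved with level. Of 27303 intergenic regions called in both Control and PDGFB-NLS, 47.0% were also called in PDGFB-WT. The share was 24.6% where the mean CPM of Control and PDGFB-NLS was under 5 and 99.0% where it was at least 20. The PDGFB-WT against Control ratio of the regions that were called moved the other way, from a median log2 of 1.09 at the lowest levels to -0.20 at the highest. Control enters both this level and the base of the ratio, so a fall of the ratio with level is partly built in. The same holds where positions and distances are split by level below. The part of the selection by calling in the counts of higher regions given here was not tested.

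**Figure D1:**
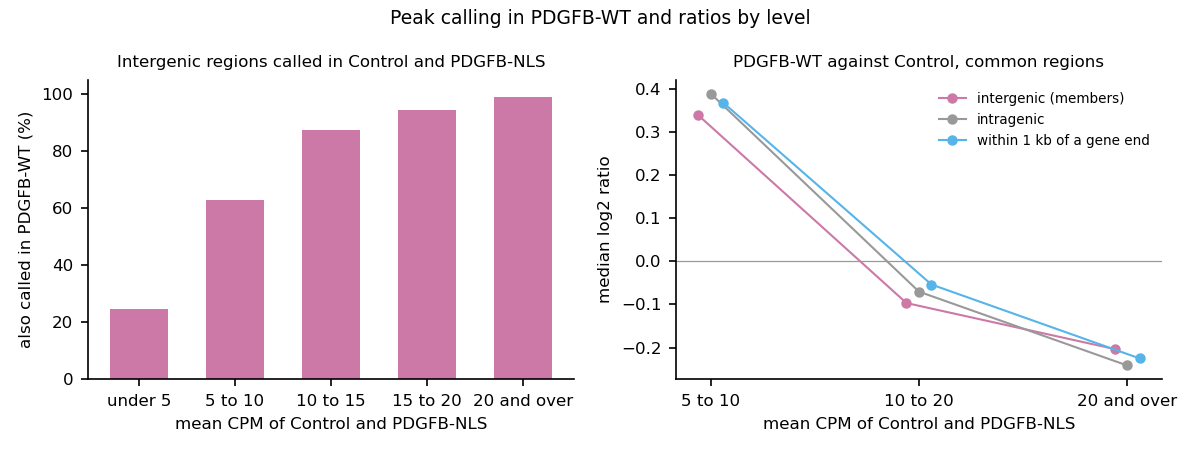
Left, percent of intergenic regions called in Control and PDGFB-NLS that were also called in PDGFB-WT, by their mean CPM in the first 2. Right, median log2 ratio of CPM in PDGFB-WT against Control for common regions of each position by level, where members are the shared intergenic regions. The percent climbs from 24.6 to 99.0, and at 20 CPM and over the 3 positions lie between -0.24 and -0.20.

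Of the counts in common regions, the shared intergenic regions held 13.7% in Control, 16.3% with PDGFB-WT and 13.9% with PDGFB-NLS. By fragments the shares were 13.7% (95% interval 13.7 to 13.7), 16.3% (16.2 to 16.3) and 13.8% (13.8 to 13.9). The higher share of PDGFB-WT was largest in its shallowest barcodes: split into 4 sets by depth, it was 20.3% in the set with a median of 318 counts and 15.9% in that with a median of 1606. Across the 4 sets of Control it ran from 12.5% to 13.9%, and across those of PDGFB-NLS from 13.1% to 14.1%. The part of depth in the difference was not tested.

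The share also differed between clusters within each library. In Control it was 9.37% and 9.51% in the 2 endothelial-like clusters, 12.5% in oligodendrocyte-like nuclei, 15.02% in astrocyte-like nuclei and 16.3% in OPC-like nuclei. It reached 24.3% in cluster 6 of Control, 129 barcodes that took no name. PDGFB-NLS gave 10.0% in endothelial-like, 13.4% in oligodendrocyte-like and 14.8% in OPC-like nuclei, so its order over these 3 classes was that of Control. In PDGFB-WT the lowest share was that of microglia or macrophage-like nuclei (14.0%) and the highest that of the unnamed cluster 4 (19.5%).

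For ratios, 10289 of the 12839 regions had a mean CPM of at least 5 over the 3 libraries and were compared, and 2550 did not. All ratios are log2 ratios of CPM relative to the median of the 40460 common regions compared, and a region is called higher or lower when it differs by at least 2-fold. In PDGFB-WT against Control, 1996 shared intergenic regions (19.4%) were higher and 409 (3.98%) lower, where the background over all common regions was 13.8% higher and 3.33% lower. Their median was 0.20, near that of intragenic regions (0.17) and above that of regions at gene ends (-0.15). Level moved with this order: shared intergenic regions had a median of 8.40 CPM and gene ends 26.8. Among regions at 20 CPM and over in Control and PDGFB-NLS, the medians were -0.20 for intergenic, -0.24 for intragenic and -0.23 for gene-end regions. At 5 to 10 CPM they were 0.34, 0.39 and 0.37. The shares past 2-fold differed more than the medians. At 20 CPM and over, 2.05% of intergenic regions were higher and 9.13% lower, against 1.23% and 7.43% of intragenic and 0.231% and 1.62% of gene-end regions.

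Over whole libraries, fewer shared intergenic regions passed 2-fold in PDGFB-NLS against Control. In that comparison 770 (7.48%) were higher and 123 (1.20%) lower, beside a background of 5.42% and 0.67%, and the median was 0.04. PDGFB-WT held 6637820 counts in common regions, against 25380106 in Control and 24199196 in PDGFB-NLS. The part of depth in this difference between the comparisons was not tested. In PDGFB-NLS against PDGFB-WT, 225 (2.19%) were higher and 833 (8.10%) lower, beside a background of 1.9% and 5.18%, with a median of -0.15. The 3 comparisons share libraries, so their values are not independent. The 95% interval lay wholly beyond 2-fold for 797 higher and 75 lower of the 10289 regions in PDGFB-WT to Control. For PDGFB-NLS to Control it did so for 266 and 36. Over all 40460 common regions compared, the background was 2101 and 202 in the first comparison and 723 and 64 in the second.

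**Figure D2:**
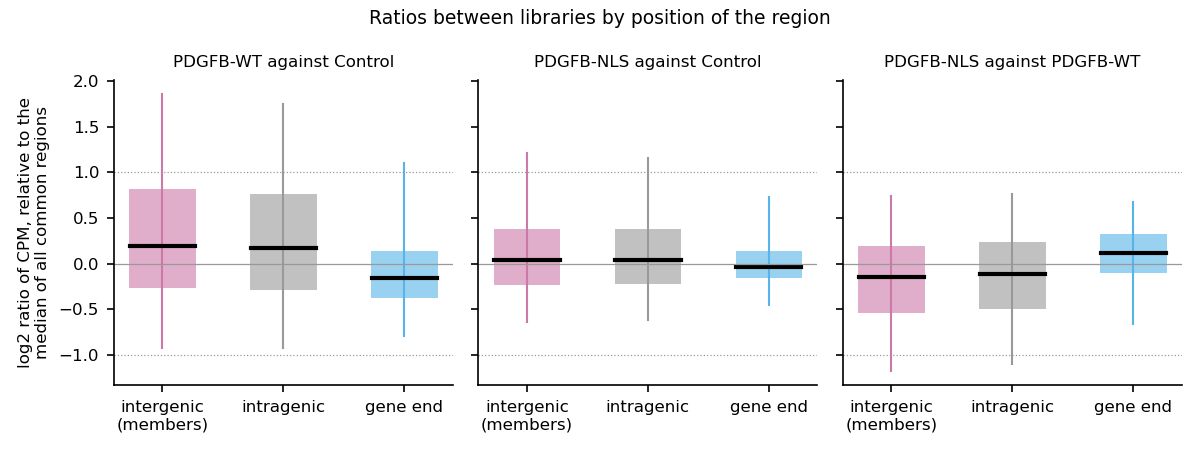
Log2 ratio of CPM relative to the median of all common regions, for common regions of each position in each comparison. Black bars are medians, boxes the quartiles, lines the range from the fifth to the 95th percentile, and dotted lines mark 2-fold. Intergenic and intragenic regions look alike and spread more than gene ends, with medians of 0.20, 0.17 and -0.15 in PDGFB-WT against Control.

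Over whole libraries, regions far from genes differed more from Control. The median distance to a protein-coding gene end was 22.5 kb (quartiles 7.66 and 69.9), and 251 regions lay over 500 kb away. In PDGFB-WT against Control the median log2 ratio was -0.02 at 1 to 5 kb, 0.07 at 5 to 20 kb, 0.31 at 20 to 100 kb, 0.71 at 100 to 500 kb and 1.09 beyond 500 kb. The share at least 2-fold higher went from 8.66% to 51.4% over these bins. In PDGFB-NLS against Control the medians went from -0.04 to 0.27. Levels were lower along the same axis, from a median of 10.2 CPM at 1 to 5 kb to 5.41 beyond 500 kb, and level cannot be told apart from distance in the medians over all levels. At 20 CPM and over the median went from -0.22 at 1 to 5 kb to -0.11 beyond 100 kb. At 5 to 10 CPM it went from 0.18 to 0.71. The share at least 2-fold higher went from 0.612% to 7.89% at 20 CPM and over. At 5 to 10 CPM that share went from 12.1% to 35.4%. Some of the higher regions beyond 100 kb at 20 CPM and over are those near Lrrc4c described further on. Of the 138 regions compared beyond 500 kb, 6 belong to the group described further on that was 8-fold lower in PDGFB-NLS, and without them the median was 0.99. Within 1 class of nuclei values are on another scale, log2 of CPM + 1, and cover fewer regions. In OPC-like nuclei the medians of PDGFB-WT against Control were 0.01, -0.05, -0.03, -0.00 and 0.09 over the same bins, and in microglia or macrophage-like nuclei -0.00, -0.00, 0.01, 0.10 and 0.45, the last over 37 regions.

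**Figure D3:**
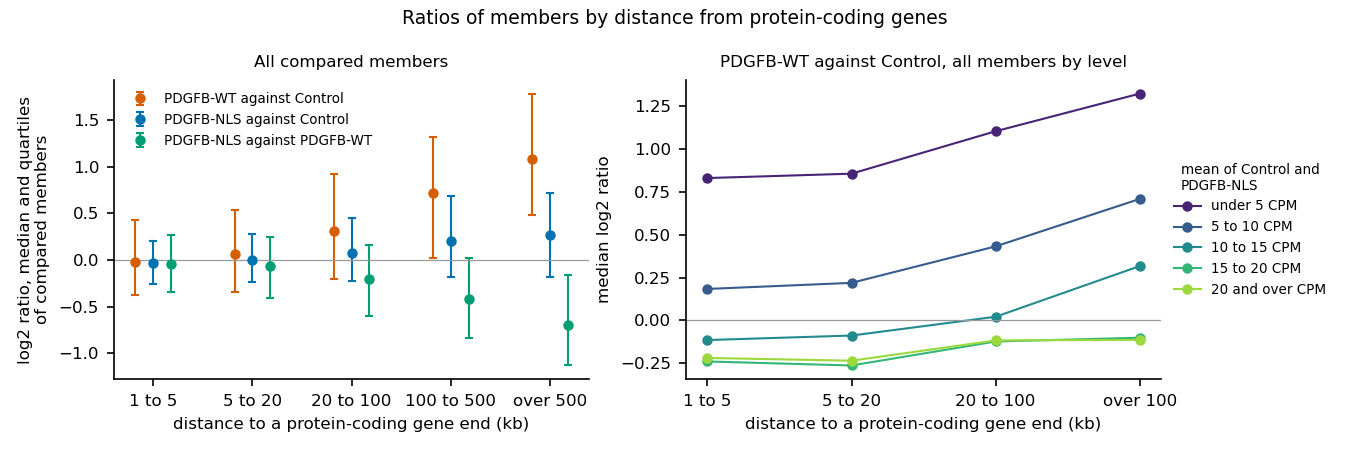
Left, median and quartiles of the log2 ratio of compared shared intergenic regions by distance to a protein-coding gene end (kb), for the 3 comparisons. Right, median log2 ratio of PDGFB-WT against Control by distance for regions at 5 levels. Medians climb from -0.02 to 1.09 in PDGFB-WT against Control, while the curve at 20 CPM and over stays between -0.24 and -0.11.

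Regions were named by the bound of their interval nearest to 0. Among the 5 named as highest in PDGFB-WT against Control, 3 near Alkbh8, Lrrc4c and Gm2244 belong to the group that was 8-fold lower in PDGFB-NLS and are described with it. The other two lie 292 kb from 1700010I14Rik and 19.3 kb from Tcf7l2, a transcription factor of WNT signalling that also acts in oligodendrocyte maturation. The first (chr17:9300726-9301753) held 1.22 CPM in Control, 18.7 with PDGFB-WT and 8.60 with PDGFB-NLS. PDGFB-WT was 14.8-fold above Control (log2 3.88, 95% interval 3.08 to 4.77) and PDGFB-NLS 6.92-fold above it. The Tcf7l2 region (chr19:55952973-55953935) held 2.76, 29.98 and 14.5 CPM, with log2 ratios to Control of 3.39 (2.84 to 3.98) in PDGFB-WT and 2.37 (1.85 to 2.92) in PDGFB-NLS. PDGFB-NLS thus lay between Control and PDGFB-WT at both. Within OPC-like nuclei the gap was smaller. The Tcf7l2 region held 38.2 CPM in those of Control, 53.2 in those of PDGFB-WT and 46.9 in those of PDGFB-NLS, and the 1700010I14Rik region 22.3, 43.7 and 46.7. Microglia or macrophage-like nuclei held at most 2.53 CPM of the Tcf7l2 region in any library. The Control values rest on 24 and 14 counts from 57 OPC-like barcodes.

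The regions highest in PDGFB-NLS against Control lie 585 kb from Itga1 (an integrin subunit), 99.7 kb from Gsdmc (a pore-forming gasdermin), 456 kb from Nova1 (a neuronal splicing factor), 1234 kb from Stim2 (a calcium sensor of the endoplasmic reticulum) and 519 kb from Sall3 (a zinc finger transcription factor). The Itga1 region (chr13:115687069-115687999) held 1.65 CPM in Control, 13.4 with PDGFB-WT and 17.9 with PDGFB-NLS, and was 10.6-fold above Control in PDGFB-NLS (log2 3.41, interval 2.77 to 4.11). The Gsdmc region held 2.60, 24.6 and 20.1 CPM, and the Nova1 region 0.946, 9.64 and 8.43. All 5 were also at least 2-fold higher in PDGFB-WT than in Control, with log2 ratios from 2.21 to 3.30. At the Gsdmc region OPC-like nuclei were the highest cluster of each library, with 94.7 CPM in PDGFB-NLS, 66.4 in PDGFB-WT and 28.7 in Control. OPC-like nuclei of PDGFB-NLS and Control held 45.0 and 6.37 CPM at the Itga1 region, 48.9 and 22.3 at Nova1, and 34.5 and 12.7 at Sall3. At the Stim2 region they held 25.4 and 28.7 CPM, so PDGFB-NLS was not above Control there. Each OPC-like value of Control rests on 18 counts or fewer. Oligodendrocyte-like nuclei of PDGFB-NLS also held 46.6 CPM at the Itga1 region and 28.8 at the Stim2 region, where those of Control held 4.37 and 1.25. That last contrast compares nuclei of the same class, from 2271 barcodes in PDGFB-NLS and 361 in Control.

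Among the regions named as lowest in PDGFB-WT against Control, those near Rasgef1b and Med13l were high in nuclei like oligodendrocytes, the myelin-forming cells. The Med13l region was higher still in endothelial-like nuclei of Control. The region 141 kb from Rasgef1b (chr5:99394349-99395457) held 28.0 CPM in Control, 5.12 with PDGFB-WT and 19.3 with PDGFB-NLS, a 5.66-fold lower level in PDGFB-WT (log2 -2.50, interval -3.30 to -1.80). Oligodendrocyte-like nuclei held 106 CPM there in Control and 79.8 in PDGFB-NLS, and the highest cluster of PDGFB-WT, the OPC-like one, held 10.9. The region 290 kb from Med13l, which encodes a Mediator subunit, held 30.1, 6.78 and 21.4 CPM over the libraries, with 78.0 and 91.9 CPM in oligodendrocyte-like and in the larger set of endothelial-like nuclei of Control. PDGFB-WT had a named cluster of neither kind. Regions near Tmigd3 (24.6, 5.42 and 23.1 CPM) and St6galnac5 (12.8, 4.37 and 19.1 CPM) were named as highest in PDGFB-NLS against PDGFB-WT. Oligodendrocyte-like nuclei of Control held 92.6 and 48.0 CPM there. The region 22.0 kb from Il33, an alarmin cytokine, differed from these: it was low in both overexpression libraries (16.6, 7.83 and 4.17 CPM), and oligodendrocyte-like nuclei held 62.3 CPM there in Control and 12.6 in PDGFB-NLS.

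A different set of regions was low in PDGFB-WT in both classes of nuclei that were named in all 3 libraries. The region 282 kb from Pex2, a peroxisome biogenesis gene, held 430 CPM in Control, 126 with PDGFB-WT and 351 with PDGFB-NLS (chr3:5860219-5861127; PDGFB-WT against Control log2 -1.82, interval -1.97 to -1.68). In microglia or macrophage-like nuclei it held 784 and 595 CPM in the 2 Control clusters, 97.4 with PDGFB-WT and 599 with PDGFB-NLS. In OPC-like nuclei it held 414, 51.0 and 218 CPM. The region 9.69 kb from Myl12b, a myosin light chain gene, and the region of Gm15564 near Kpna1, whose sequence is shown above, had the same pattern: 64.5, 14.5 and 59.6 CPM for the first and 63.8, 16.1 and 38.6 for the second. The unnamed cluster 4 of PDGFB-WT stood apart, with 552 CPM at the Pex2 region and 56.1 at the Myl12b region.

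**Figure D4:**
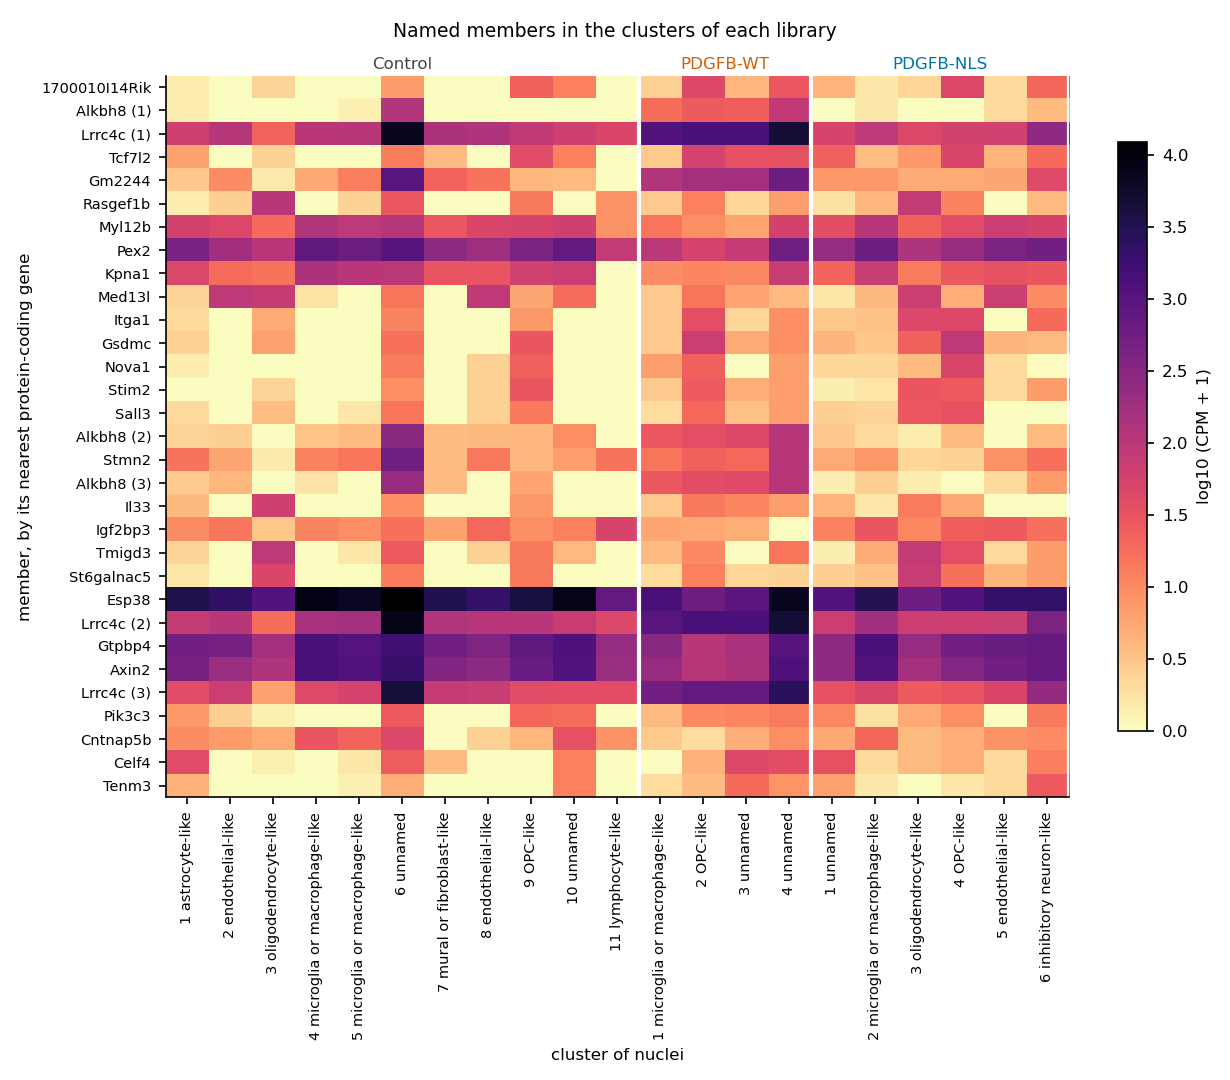
Level of the named shared intergenic regions (rows, by nearest protein-coding gene; numbers in brackets tell apart regions with the same nearest gene) in each cluster of nuclei (columns), as log10 of CPM + 1. Regions near Gsdmc and Tcf7l2 are darkest in OPC-like nuclei, those near Rasgef1b and Tmigd3 in oligodendrocyte-like nuclei, and those near Lrrc4c, Alkbh8 and Gm2244 in cluster 6 of Control and in all clusters of PDGFB-WT.

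Of the 10289 shared intergenic regions compared, 1 was at least 2-fold lower in PDGFB-WT and at least 2-fold higher in PDGFB-NLS than in Control. It lies 1.73 kb from Igf2bp3 (chr6:49217196-49218473), which encodes an RNA-binding protein of fetal and tumor tissue. It held 8.51 CPM in Control, 3.92 with PDGFB-WT and 19.4 with PDGFB-NLS, with log2 ratios to Control of -1.17 (-2.12 to -0.34) and 1.16 (0.84 to 1.50). Microglia or macrophage-like nuclei held 9.96 and 8.43 CPM in the 2 Control clusters, 4.73 in PDGFB-WT and 29.0 in PDGFB-NLS. OPC-like nuclei held 7.97, 4.55 and 23.2 CPM, so PDGFB-NLS was the high library in both classes. PDGFB-WT lay less than 2-fold below Control in OPC-like nuclei. In microglia or macrophage-like nuclei it lay less than 2-fold below 1 Control cluster (8.43 CPM) and just over 2-fold below the other (9.96 CPM). The PDGFB-WT values rest on 10 counts each and the OPC-like value of Control on 5.

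In the opposite direction, 28 of the 10289 regions were at least 2-fold higher in PDGFB-WT and at least 2-fold lower in PDGFB-NLS than in Control. For neither direction was the same count taken over all common regions. Of the 28, 21 also formed the set of all shared intergenic regions at least 8-fold lower in PDGFB-NLS than in PDGFB-WT. That limit was chosen after the values were seen, and 3 of the other common regions passed it. The 21 regions fall at 8 sites. Those with several regions are chr9:2999730-3036428 (8 regions, nearest gene Alkbh8), chr2:98662250-98667436 (5 regions, over 1000 kb from Lrrc4c) and chr14:19415685-19419844 (3 regions, near Gm2244). As background, mm10 holds short stretches where reads from high-copy repeats collect, and no repeat annotation was used here. Over the 21 regions the summed level was 853 CPM in Control, 6058 with PDGFB-WT and 323 with PDGFB-NLS. Each of the 21 was higher in PDGFB-WT than in Control (log2 2.34 to 3.50) and lower in PDGFB-NLS (log2 -2.89 to -1.05).

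Levels over the 21 regions differed between clusters of nuclei. In Control, the unnamed cluster 6 held 29446 CPM over the 21 regions and every other cluster between 54.2 and 487. In PDGFB-WT all clusters were high, with 3770 CPM in microglia or macrophage-like nuclei, 5136 in OPC-like nuclei and 18123 in the unnamed cluster 4. In PDGFB-NLS the range was 188 to 440 CPM, apart from 1369 in inhibitory neuron-like nuclei. Without cluster 6 of Control and cluster 4 of PDGFB-WT, an alternative chosen after the data were seen, the sums were 277 CPM in Control, 4605 with PDGFB-WT and 323 with PDGFB-NLS. PDGFB-WT was then still at least 2-fold above Control at all 21 regions (median log2 4.54), while PDGFB-NLS was above Control at 19 of 21 (median 0.36) and 2-fold lower at 0. The 2 clusters were picked for their high level over these same regions, and the highest cluster of PDGFB-NLS was kept. A fall of the Control sum was thus fixed in advance. The part of the 129 barcodes of cluster 6 in the lower level of PDGFB-NLS than Control was not tested. The 21 regions held 0.085% of the common counts of Control, 0.606% for PDGFB-WT and 0.032% for PDGFB-NLS, and without them the intergenic share was 13.6%, 15.7% and 13.9%.

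The most accessible shared intergenic region (chr17:39842919-39844942) lies 1.41 kb from the pseudogene Rn18s-rs5, a copy of the ribosomal RNA gene, and has Esp38 as its nearest protein-coding gene. It held 4572 CPM in Control, 1578 with PDGFB-WT and 1741 with PDGFB-NLS, so Control stood apart from both overexpression libraries (log2 -1.58 and -1.42). Reads from other copies of that gene could be placed there, which makes its level uncertain. The regions in the lncRNA genes Gm36264 (15.1 kb from Gtpbp4, a ribosome biogenesis GTPase) and Gm36876 (60.5 kb from Axin2, a feedback inhibitor of WNT signalling) came next outside the 21. They held 718, 276 and 673 CPM and 697, 270 and 544 CPM, and PDGFB-WT was the low library at both. The regions farthest from any protein-coding gene lie 2187 kb from Pik3c3, 2137 kb from Cntnap5b, 2082 kb from Celf4 and 1979 kb from Tenm3. The Celf4 region was open in astrocyte-like nuclei of Control (37.3 CPM) and in the unnamed clusters 3 of PDGFB-WT (44.0) and 1 of PDGFB-NLS (32.1), whose best marker list was the astrocyte one, and held at most 1.01 CPM in microglia or macrophage-like nuclei.

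The 12839 regions had 6102 different nearest genes. Of these, 3277 genes were nearest to 1 region and 76 to at least 10. The 8 genes nearest to the most regions were Zfp608 (26), Marcks (24), Sox2 (24), Usp25 (23), Zfp36l2 (19), Reep3 (18), Tle3 (18) and Ubash3b (17). Regions around 1 gene differed widely among themselves. Around Reep3, log2 ratios of PDGFB-WT against Control ran from -1.76 to 1.82 over 15 compared regions, with 4 at least 2-fold higher and 4 lower, beside 19.4% and 3.98% over all compared regions. Around Zfp36l2, which encodes an RNA-binding protein that shortens mRNA half-lives, the 19 regions spanned 136 kb and ran from -1.15 to 1.13. The median was highest around Usp25 (0.77 over 16 compared regions, 6 of them higher), a ubiquitin protease gene, and lowest around Reep3 (-0.57).

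Sox2, a transcription factor of neural stem and precursor cells, had 24 regions over 719 kb, several of them within the lncRNA gene Sox2ot. Of the 21 compared, 6 were at least 2-fold higher in PDGFB-WT and 3 in PDGFB-NLS, and 0 were lower in either. Over all compared regions 19.4% and 7.48% were higher and 3.98% and 1.20% lower, so a count of 0 lower among 21 is near the background. The region 69.7 kb from the gene (chr3:34722186-34723181) held 2.60 CPM in Control, 17.9 with PDGFB-WT and 9.55 with PDGFB-NLS (log2 2.74, interval 2.11 to 3.38, and 1.85, 1.30 to 2.44). Another, 185 kb away in Gm21388, held 3.23, 16.9 and 8.72 CPM. By contrast, the region 208 kb from Sox2 on the other flank held 29.98, 20.9 and 32.3 CPM. Split by flank, a division chosen after the values were seen, the 10 compared regions at higher coordinates had a median of 1.17 in PDGFB-WT against Control and 9 of them lay above 0. The 11 at lower coordinates had a median of 0.18, with 6 above 0. The ends of Sox2 itself held 32.0, 44.1 and 35.7 CPM.

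**Figure D5:**
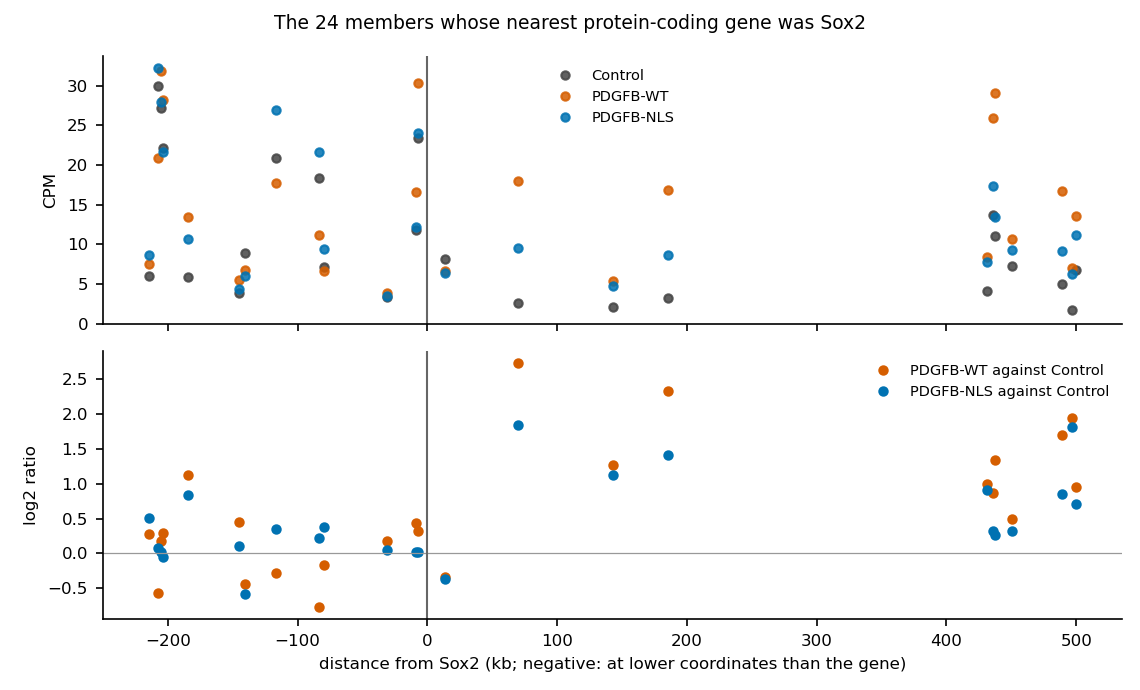
The 24 shared intergenic regions whose nearest protein-coding gene was Sox2, by distance from the gene (kb). Top, CPM in each library; bottom, log2 ratios to Control, drawn also for the 3 regions too low to be compared. At higher coordinates than the gene most ratios lie above 0, up to 2.74 for PDGFB-WT and 1.85 for PDGFB-NLS.

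Gene lists were read by the nearest gene of each region, beside the values of all compared regions: a median of 0.20 and 19.4% higher in PDGFB-WT against Control, and 0.04 and 7.48% in PDGFB-NLS against Control. OPC markers had 29 compared regions with medians of 0.61 and 0.24, and 10 of them were at least 2-fold higher in PDGFB-WT, 6 in PDGFB-NLS and 1 and 0 lower. The highest lie 41.1 kb and 40.0 kb from Ptprz1, a receptor phosphatase of OPC and glioma cells. The first held 3.74 CPM in Control, 28.3 with PDGFB-WT and 16.2 with PDGFB-NLS (log2 2.87 and 2.09). A region 149 kb from Pdgfra, the receptor of PDGFB that marks OPC, held 8.23, 44.0 and 30.1 CPM (log2 2.37, interval 2.01 to 2.73, and 1.84, 1.53 to 2.16). That region is the highest of PDGFB-NLS in the list of PDGF and receptor tyrosine kinase signalling, of whose 46 compared regions 12 were higher in PDGFB-WT and 5 in PDGFB-NLS. In the same list a region 142 kb from Dusp6, a phosphatase that turns off ERK, was the lowest, at 15.5, 4.82 and 9.13 CPM.

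Oligodendrocyte markers went the other way, with 15 compared regions, medians of -0.17 and -0.27, and 0 higher and 3 lower in PDGFB-WT, where 3.98% of all compared regions were lower. The lowest, 7.64 kb from the receptor gene Gpr37, held 20.9, 4.67 and 10.9 CPM. Astrocyte markers (36 compared regions) had medians of 0.57 and 0.19, with 14 higher in PDGFB-WT and 3 in PDGFB-NLS. Neural progenitor markers (58) had medians of 0.46 and 0.28, with 18 and 8 higher. A region 268 kb from Sox11, an embryonic neural transcription factor, held 1.38, 9.34 and 8.64 CPM (log2 2.71 and 2.62). Among cell types not of the neural lineage, regions near microglia or macrophage markers (38) had medians of -0.05 and -0.04 and those near endothelial markers (23) of 0.12 and -0.05. Markers of mural cells or fibroblasts (9), lymphocytes (11), ependymal cells (4), erythroid cells (4), excitatory neurons (10) and inhibitory neurons (15) had few compared regions, with medians in PDGFB-WT against Control between -0.26 and 0.62. The highest single region of the microglia list, 588 kb from Sall1, held 1.65, 17.8 and 8.76 CPM.

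Among pathway and factor lists, axon guidance and adhesion genes had the highest medians (46 compared regions, 0.88 and 0.47), with 21 higher in PDGFB-WT and 5 in PDGFB-NLS. A region 600 kb from Plxna2, a semaphorin receptor, held 1.18, 15.1 and 4.96 CPM (log2 3.62, interval 2.77 to 4.56, and 2.04, 1.21 to 2.96). Homeodomain and POU factors followed (58 regions, 0.73 and 0.34, with 19 and 8 higher), then genes of WNT, BMP, TGF-beta and Notch signalling (83 regions, 0.56 and 0.29, with 28 and 13 higher) and SOX factors (57 regions, 0.47 and 0.22, with 12 and 7 higher). The region 57.8 kb from Mycn led the cell cycle and growth list, whose medians were 0.20 and 0.14 over 51 regions. It held 1.30, 13.0 and 6.74 CPM (log2 3.27 and 2.35). Mycn encodes a MYC family transcription factor. The neural bHLH, HES and ID list (65 regions, 0.19 and 0.07) and the list of NFI, nuclear receptor and Kruppel-like factors (78 regions, 0.20 and 0.01) lay near all regions.

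AP-1 factors, the FOS and JUN family of rapidly induced transcription factors, had the lowest median of the 22 lists in PDGFB-WT against Control (-0.37) and a median of -0.19 in PDGFB-NLS against Control, where the oligodendrocyte and erythroid lists lay lower. Of 28 compared regions, 0 were higher and 8 lower in PDGFB-WT, where 3.98% of all compared regions were lower. The region 6.08 kb from Fosb held 79.0 CPM in Control, 26.1 with PDGFB-WT and 56.2 with PDGFB-NLS (log2 -1.65, interval -1.98 to -1.34, and -0.52, -0.66 to -0.38). Immune signalling genes had 100 compared regions with medians of -0.08 and -0.05. The level of the lists moved with their medians: regions near AP-1 genes had a median of 22.1 CPM in Control and a median distance of 13.9 kb, those near axon guidance genes 5.65 CPM and 163 kb, and all compared regions 9.02 CPM and 19.4 kb. The part of level and of being called in PDGFB-WT in these medians was not tested.

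Ratios of regions and of the ends of their nearest genes were only loosely alike. Across 7681 compared regions with 3804 nearest genes, Spearman's rho was 0.16 for the ratios of PDGFB-WT to Control, 0.13 for those of PDGFB-NLS to Control and 0.09 between the overexpression libraries. These are descriptions across regions that share libraries and genes. In PDGFB-WT against Control rho was 0.18 at 1 to 5 kb and 0.11 at 100 to 500 kb. Of 1420 regions at least 2-fold higher in PDGFB-WT, 96 (6.76%) had a nearest gene whose ends were also at least 2-fold higher, beside 242 (3.15%) of all 7681. Neighbouring regions were more alike: rho was 0.42 over 1510 pairs less than 5 kb apart and 0.15 over 4065 pairs over 100 kb apart.

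The ratios were also taken within nuclei of 1 class, on another scale and over fewer regions than those of whole libraries, so their medians cannot be set against each other. In microglia or macrophage-like nuclei (Control clusters 4 and 5, PDGFB-WT cluster 1 and PDGFB-NLS cluster 2) the medians of 6441 regions, as log2 of CPM + 1, were 0.01 for PDGFB-WT to Control, -0.01 for PDGFB-NLS to Control, and -0.02 between the overexpression libraries. The regions held 14.7%, 14.0% and 14.3% of the common counts of these nuclei in Control, PDGFB-WT and PDGFB-NLS. In the first of these comparisons 7.30% were at least 2-fold higher and 5.93% lower, where all common regions gave 4.91% and 4.24%. For PDGFB-NLS to Control it was 1.40% and 0.559%, where all common regions gave 1.17% and 0.355%. In OPC-like nuclei (clusters 9, 2 and 4) the medians of 8321 regions were -0.00, -0.12 and -0.09 and the shares 16.3%, 16.2% and 14.8%. Of these regions 14.9% were at least 2-fold higher and 9.58% lower in PDGFB-WT than in Control, where all common regions gave 12.5% and 6.85%. For PDGFB-NLS to Control it was 11.9% and 12.6%, where all common regions gave 11.0% and 7.58%. The OPC-like values of Control rest on 57 barcodes.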

How the data were processed

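Single-cell ATAC-seq libraries of Control, PDGFB-WT and PDGFB-NLS (1 each) were analysed. Per the file headers the matrices come from cellranger-atac 2.1.0, while Cell Ranger 8 and mm10 stand in the submitters' processing notes. The deposited values are raw counts per peak and barcode, without normalization. Peaks were deposited per library. The sources used here do not give the settings of the peak and cell callers.

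Analysis used barcodes of 200 counts or more, with no removal of doublets. Control had 31092636 counts in total, PDGFB-WT 6890979 and PDGFB-NLS 30711771. A value was read as fragments by halving it and rounding up. Gene positions, without strand, came from RefSeq (GRCm38.p6). CPM was set over common regions. No p-value was computed. Regions were named by a rule of extreme interval bounds per comparison, highest CPM, greatest distance, genes with the most regions, and the extremes of each of 22 lists. Regions, rules and lists were chosen with earlier results of these data known, and the sequence choice, level bins and 8-fold limit after their values were seen.

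Peaks outside the shared intergenic regions were reduced to 30 components, joined to 15 neighbours and grouped by leidenalg 0.10.2 at resolution 0.6. A cluster took a marker name at a median log2 excess of at least 1. That limit was raised after clusters were seen because a lower one named a cluster against its leading genes. The name was withheld where another list had more genes among the 10 leading ones, or where a far shallower cluster had none there. So cluster 1 of PDGFB-NLS and cluster 3 of PDGFB-WT took no name at astrocyte medians of 2.01 and 1.27. Clusters 6 and 10 of Control took none at 1.06 and 1.61 for neuron lists. A longer CTCF motif, searched at first, was dropped after its matches were seen and is not reported. The interval and ratio code was tested on simulated data.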

Additional observations from a re-analysis of the deposited data

Results flagged for a closer look

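Of the counts of PDGFB-WT, 0.138% fell on unplaced scaffolds, which no comparison used, beside 0.103% in Control and 0.0764% in PDGFB-NLS.

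For 28 shared intergenic regions PDGFB-WT lay at least 2-fold above and PDGFB-NLS at least 2-fold below Control. The same count over all common regions was not taken. The difference between the libraries was not tested, since each group had 1 library, and 21 of the 28 are the regions that were 8-fold lower in PDGFB-NLS than in PDGFB-WT.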

How the results depend on the processing

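No paired analysis was possible because each group had 1 library. The same single library also limits every value to counting error, and the shallow PDGFB-WT list limits the regions to those bright enough to be called there. The count of 12839 regions ranged from 8562 to 15015 over 4 other rules. Over 17 settings, 428 of 483 values of named regions stayed within their interval, 53 moved and 2 changed sign. These 2, both in PDGFB-NLS against Control without cluster 6 of Control and cluster 4 of PDGFB-WT, became 0.079 (chr9:3025081-3025955, near Alkbh8) and 0.36 (near Gm2244). With entries read as open or not, the median of PDGFB-NLS against Control became -0.051.

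The intergenic share of counts is given in the order Control, PDGFB-WT and PDGFB-NLS where all 3 changed beyond the interval. It was 13.4%, 17.1% and 13.7% with barcodes weighing equally, 11.2%, 15.7% and 11.0% over all own peaks, and 14.0%, 16.7% and 14.5% without the 1% of regions with most counts. It was 8.17%, 10.5% and 8.58% at 5 kb from gene ends, 17.5%, 20.1% and 17.7% with protein-coding ends only, and 11.3%, 13.4% and 11.4% outside bodies of all genes. It was 13.3%, 16.1% and 13.8% where each library covered at least 50% of the region, and 13.6%, 15.7% and 13.9% without the 21 regions. Read as open or not it was 14.3% in Control and 16.0% in PDGFB-WT, and by fragments 13.7% in Control and 13.8% in PDGFB-NLS. With barcodes of at least 1000 counts it was 15.8% in PDGFB-WT and 13.9% in PDGFB-NLS. Without the 5% of barcodes with most counts it was 13.8% in Control, and without the 2 unnamed clusters 13.5% in Control and 15.9% in PDGFB-WT. PDGFB-WT had the highest share in each setting with values for all 3.

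Counts past 2-fold that moved by over 1.5 times are the following. With barcodes of at least 1000 counts, 731 regions were lower in PDGFB-WT than in Control and 448 higher in PDGFB-NLS than in PDGFB-WT. With barcodes weighing equally, 356 were lower in PDGFB-NLS than in Control and 147 higher in PDGFB-NLS than in PDGFB-WT. At 5 kb, 263 were lower in PDGFB-WT than in Control and 146 higher in PDGFB-NLS than in PDGFB-WT. With no minimum level, 207 were lower in PDGFB-NLS than in Control and 1511 lower in PDGFB-NLS than in PDGFB-WT. At a mean CPM of at least 10, counts higher and lower were 726 and 204 for PDGFB-WT against Control, 229 and 37 for PDGFB-NLS against Control, and 108 and 262 for PDGFB-NLS against PDGFB-WT. With the interval wholly beyond 2-fold they were 797 and 75, 266 and 36, and 26 and 141. Over all 40460 common regions compared, these last counts were 2101 and 202, 723 and 64, and 80 and 318. Fewer regions were tested at the stricter minimum and at 5 kb; for the other settings the cause was not tested. The settings without the 21 regions and without the 2 clusters were chosen after seeing the data.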
